A study of Mus musculus with 32 samples.

Results

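The heavy chain constant region genes Ighm (IgM), Ighg1, Ighg2b, Ighg2c and Ighg3 (the IgG subclasses) and Igha (IgA), the light chain constant region genes Igkc (kappa), Iglc1 and Iglc2 (lambda), and Jchain were followed in whole mesothelioma tumors. They were chosen by gene symbol, each had 1 row in the table, and they make up 10 of its 39676 genes. RNA was sequenced from 32 tumors, each from a separate untreated female mouse aged 8 to 10 weeks, and all were harvested at day 10. The AB1 IPL and AB1 SC groups were BALB/c mice given 500000 cells of the murine mesothelioma line AB1, into the pleural space in 200 µL (intrapleural, IPL) or under the skin of the flank in 100 µL (subcutaneous, SC). The AE17 IPL and AE17 SC groups were C57BL/6 mice given 1000000 cells of the line AE17 at the same sites, and each of the 4 groups held 8 mice. Each line is transplanted into mice of its own strain, so the cell line, the strain and the number of cells inoculated change together. According to the methods, lungs and surrounding tissue were taken off the tumors after harvest.

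An antibody is built from paired heavy and light chains, and its class is set by the heavy chain constant region. A B cell first joins its variable region to Ighm and may later replace Ighm by a downstream constant region, a step called class switching. Each B cell uses either the kappa or the lambda light chain. Plasma cells, the secreting end stage of the B cell lineage, make far more of these transcripts than resting B cells, and Jchain encodes the joining chain that links IgM and IgA into polymers. In whole tumors, fewer cells of a type and less RNA per cell cannot be told apart.

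The IgG subclasses are near relatives whose hinges, the short stretch between the arms and the stem of the antibody, differ most. The reads of 50 bases were counted over whole genes, so their assignment to a subclass rests on differences along each gene and not on the hinge alone. The hinge exons, exon 2 of each gene on the minus strand of chromosome 12, are shown as an example of how these genes differ. They were read from GENCODE M21 transcripts on GRCm38, and capitals mark the in-frame cysteine codons. Ighg1 and Ighg2b hold 4 such codons, Ighg2c holds 3 and Ighg3 holds 1.
Ighg1 (chr12:113329844-113329882): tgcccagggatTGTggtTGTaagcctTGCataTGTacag
Ighg2b (chr12:113307261-113307326): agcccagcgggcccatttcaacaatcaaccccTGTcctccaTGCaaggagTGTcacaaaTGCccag
Ighg2c (chr12:113288263-113288325): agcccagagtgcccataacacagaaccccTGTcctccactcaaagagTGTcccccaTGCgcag
Ighg3 (chr12:113360529-113360576): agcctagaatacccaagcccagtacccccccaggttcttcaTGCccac

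Of the 50-base stretches in the exons of each gene, 5.49% of those of Ighg2c, 4.15% of those of Ighg2b, 1.58% of those of Ighg3 and 0.393% of those of Ighg1 also occur in another gene. Ighm, Igha, Igkc and Iglc1 share none. Iglc2 shares 7.65%, and its constant region segment differs from that of Iglc3, another lambda gene, at 11 of 317 bases, so reads may be split between them. Ighg2c is the form of IgG2a that C57BL/6 mice carry, and BALB/c mice carry Ighg2a in its place, so in AB1 tumors the Ighg2c row holds those IgG2a reads that were mapped to the C57BL/6 sequence. Gene counts do not separate the secreted from the membrane form of a heavy chain. All of the heavy chain genes lie on chromosome 12, from Igha at chr12:113254830-113260236 to Ighm at chr12:113418558-113422730. Igkc lies at chr6:70726435-70726966, Iglc1 at chr16:19061618-19062071, Iglc2 at chr16:19198396-19200351 and Jchain at chr5:88519809-88527891.

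Total counts per tumor ranged from 15432258 to 20649645. Levels are given in CPM, where TMM factors set the library sizes, and the detection limit of 3 counts lies at 0.139 to 0.19 CPM. Summed over the 10 genes, immunoglobulin counts were 0.00219% to 0.423% of a tumor's total. AB1 IPL 2 (0.423%) and AE17 IPL 8 and 5 (0.199% and 0.178%) had the highest shares. AB1 IPL 4 followed with 0.109%, AB1 IPL 3 and 7 with 0.0537% and 0.0438%, and the other 26 tumors had at most 0.0178%. AB1 IPL 2 and 4 and AE17 IPL 5 and 8 had the most in each model, and some of the comparisons of the sites below are also given without 1 or both tumors of a pair. Sequencing lane, read from the names of the alignments, was almost split by group: all 8 AB1 IPL tumors were on lane 3, with 2 of the AB1 SC tumors, the other 6 AB1 SC tumors were on lane 2, and all 8 AE17 SC tumors were on lane 1, with 3 of the AE17 IPL tumors.

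**Figure D1:**
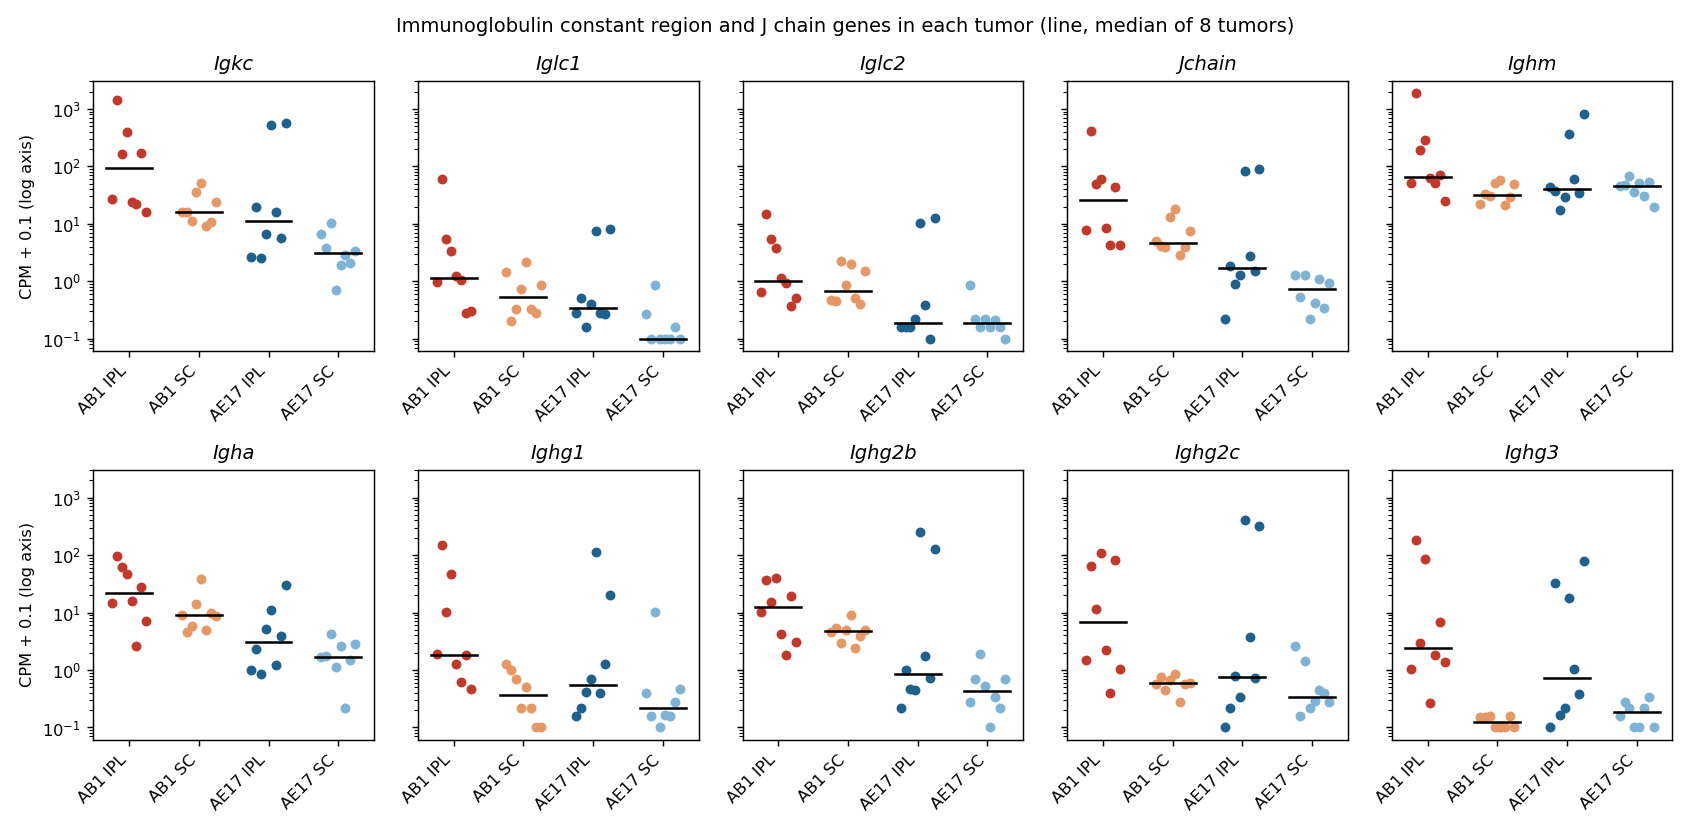
Level of each gene in each of the 32 tumors, in CPM with 0.1 added, on a log axis; 1 point per tumor and a line at the median of 8. Igkc reaches 1426 CPM in 1 AB1 IPL tumor and 518 and 570 CPM in a pair of AE17 IPL tumors, while Ighm lies between 17.1 and 68.6 CPM in all other AE17 tumors.

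Igkc and Jchain were higher in IPL than in SC tumors of both models in edgeR, with the highest levels in a few tumors. In DESeq2 neither passed in AE17. Of the lambda genes Iglc1 passed in AB1 in edgeR, Iglc2 did not, and neither passed the filter in AE17. Igkc, the constant region of the light chain most mouse antibodies use, ranged from 16.2 to 1426 CPM in AB1 IPL tumors, with a median of 94.2, and from 8.92 to 51.1 CPM in AB1 SC tumors, with a median of 16.1. AB1 IPL 2, 3, 4 and 7 lay above every AB1 SC tumor, and the other 4 lay within the SC range. The log2 fold change of Igkc was 3.69 ± 0.93 (SE, n = 8 mice against 8; edgeR adjusted p = 0.00877), and without AB1 IPL 2 it was 2.44 (edgeR adjusted p = 0.0174). In AE17, Igkc ranged from 2.47 to 570 CPM at the IPL site, with a median of 11.3, and from 0.602 to 10.2 CPM at the SC site, with a median of 3.03. AE17 IPL 2, 5, 6 and 8 lay above every SC tumor, and 5 and 8 held 518 and 570 CPM against 19.3 CPM in the next. The AE17 fold change of Igkc was 5.20 ± 1.31 on the log2 scale (edgeR adjusted p = 0.0338). It was 4.50 without IPL 5 (edgeR adjusted p = 0.0402) and 4.40 without IPL 8 (edgeR adjusted p = 0.0576).

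Jchain followed Igkc closely. In AB1 it ranged from 4.18 to 416 CPM in IPL tumors (median 26.2) and from 2.74 to 17.8 CPM in SC tumors (median 4.54), and the log2 fold change was 3.35 ± 0.94 (edgeR adjusted p = 0.016). AB1 IPL 2 held 69.96% of the summed Jchain level of its group, and without it the fold change was 1.83 (edgeR adjusted p = 0.0482). The same AB1 tumors, IPL 2, 3, 4 and 7, lay above every SC tumor. In AE17 it ranged from 0.119 to 88.8 CPM at the IPL site (median 1.58) and from 0.12 to 1.2 CPM at the SC site (median 0.638), a log2 fold change of 5.07 ± 1.29 (edgeR adjusted p = 0.0348). Without IPL 5 it was 4.35 (edgeR adjusted p = 0.0441) and without IPL 8 it was 4.28 (edgeR adjusted p = 0.0617). DESeq2 replaced the Jchain counts of AE17 IPL 5 and 8, 1379 and 1560, by 16 and 17, and did not call Jchain in AE17. Across the 32 tumors the Spearman correlation of Jchain with Igkc was 0.969, and it was 0.977 within the 16 AB1 and 0.921 within the 16 AE17 tumors. These are descriptions over tumors that share their libraries, depth and cell mixture.

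The lambda genes were scarce. Iglc1 ranged from 0.186 to 60.1 CPM at the AB1 IPL site (median 1.04) and from 0.101 to 2.04 CPM at the SC site (median 0.437), a log2 fold change of 3.67 ± 1.16 (edgeR adjusted p = 0.0306). AB1 IPL 2 alone held 83.4% of the summed level of Iglc1 in its group. Without it the log2 fold change was 1.30 and the edgeR adjusted p was 0.203. DESeq2, which replaced the 1130 Iglc1 counts of AB1 IPL 2 by 16, gave 1.20 (DESeq2 adjusted p = 0.204). Without a filter the fold change was 3.67 and did not pass (edgeR adjusted p = 0.0624). Iglc2 ranged from 0.279 to 14.7 CPM in AB1 IPL against 0.302 to 2.18 CPM at the SC site, and the difference of 1.80 on the log2 scale did not pass (edgeR adjusted p = 0.102). In AE17 both lambda genes were near the detection limit outside IPL 5 and 8: Iglc1 had no counts in at least 5 of the SC tumors and reached 7.48 and 7.97 CPM in those 2 tumors, and Iglc2 reached 10.1 and 12.5 CPM there.

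Ighm, the heavy chain of IgM and of the first B cell receptor, rose at the pleural site in AB1 only by the test, and the difference between the models did not pass. In AB1 it ranged from 25.01 to 1866 CPM in IPL tumors (median 65.8) and from 21.04 to 56.7 CPM in SC tumors (median 31.7). AB1 IPL 2, 3, 4, 5 and 7 lay above every SC tumor, and the log2 fold change was 3.14 ± 0.83 (edgeR adjusted p = 0.0116). AB1 IPL 2 held 71.7% of the summed Ighm level of its group, and the fold change was 1.53 without it (edgeR adjusted p = 0.0211) and 1.41 in DESeq2 (adjusted p = 0.0114), which replaced its count. In AE17 the medians were 41.1 CPM at the IPL and 46.3 CPM at the SC site, and IPL 8 and 5, at 804 and 370 CPM, were the tumors above the SC range. The log2 difference of 1.99 ± 0.75 did not pass (edgeR adjusted p = 0.118), and without those 2 tumors it was -0.25. The interaction of model and site was 1.16 ± 1.10 on the log2 scale (edgeR adjusted p = 0.498).

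Among the IgG subclasses, Ighg2c and Ighg1 had the largest fold changes that passed the test in AB1, and Ighg3 separated the sites most fully. Ighg2c, of the subclass that engages activating Fc receptors well, ranged from 0.292 to 108 CPM across AB1 IPL tumors (median 6.73), against 0.175 to 0.757 CPM in AB1 SC tumors (median 0.494). In 7 of 8 IPL tumors it lay above every SC tumor, AB1 IPL 6 being the exception, and the log2 fold change was 6.05 ± 1.19 (edgeR adjusted p = 0.00174). Ighg1, the subclass associated with type 2 responses, ranged from 0.365 to 149.6 CPM in IPL tumors (median 1.75) and from 0 to 1.16 CPM in SC tumors (median 0.262), a log2 fold change of 5.92 ± 1.38 (edgeR adjusted p = 0.00548). AB1 IPL 2 held 70.3% of the summed Ighg1 level of its group, and without it the fold change was 4.37 (edgeR adjusted p = 0.0086).

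Ighg3, the subclass made mainly against carbohydrate antigens, had 0 or 1 counts in each AB1 SC tumor and between 3 and 3429 counts in the AB1 IPL tumors. All 8 IPL tumors therefore lay above all 8 SC tumors, from 0.162 to 182 CPM with a median of 2.30. Among genes with at least 10 counts in the 16 tumors, 1.84% were above in the same way. Ighg3 was removed by the filter on low counts when AB1 was fitted alone. In the fit of all 32 mice it was kept, but only through the IPL tumors in which it is high, so its test there is not used as support. The fitted log2 fold change of 9.94 also depends on the prior count, since the SC tumors are close to 0.

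Ighg2b, another IgG subclass, had the smallest AB1 fold change of the IgG genes tested and the largest AE17 fold change of the genes tested there. It ranged from 1.69 to 40.6 CPM across AB1 IPL tumors (median 12.6), against 2.33 to 8.85 CPM in AB1 SC tumors (median 4.69). AB1 IPL 1, 2, 3, 4 and 7 lay above every SC tumor and IPL 6 lay below every SC tumor. The log2 fold change was 1.79 ± 0.55 (edgeR adjusted p = 0.0242), and without IPL 4 it was 1.41 (edgeR adjusted p = 0.0723). In AE17 it ranged from 0.119 to 248 CPM at the IPL site (median 0.761) and from 0 to 1.80 CPM at the SC site (median 0.327). IPL 5 and 8, at 248 and 129 CPM, lay above every SC tumor, and the next IPL tumor held 1.65 CPM. The log2 fold change was 6.57 ± 1.71 (edgeR adjusted p = 0.0377). It was 5.23 without IPL 5 (edgeR adjusted p = 0.0496) and 6.17 without IPL 8 (edgeR adjusted p = 0.0587).

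The other IgG genes of AE17 were removed by the filter when AE17 was fitted alone. Ighg2c reached 414 and 318 CPM in AE17 IPL 5 and 8, 3.71 CPM in IPL 6 and at most 0.68 CPM in the other 5, against 0.061 to 2.50 CPM in SC tumors. Ighg1 reached 111 and 20.3 CPM in IPL 5 and 8 and at most 1.15 CPM in the other IPL tumors. An SC tumor, AE17 SC 3, held 9.99 CPM of Ighg1 (167 counts) while the other 7 held at most 0.364 CPM. Ighg3 was highest in IPL 8 at 79.5 CPM, and IPL 2 came next with 33.2 CPM although its Igkc level was 19.3 CPM. In SC tumors Ighg3 had 0 to 4 counts.

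Igha, the heavy chain of mucosal IgA, did not pass between the sites in either model, and it alone of the 10 genes differed between the models at both sites. In AB1 it ranged from 2.51 to 96.9 CPM in IPL tumors (median 21.6) and from 4.54 to 38.6 CPM in SC tumors (median 8.79), and the log2 difference of 1.51 ± 0.64 did not pass (edgeR adjusted p = 0.103). It passed without AB1 SC 5, the highest SC tumor (2.06, edgeR adjusted p = 0.0263), and without AB1 IPL 6, the lowest IPL tumor (1.69, edgeR adjusted p = 0.0448). In AE17 it ranged from 0.741 to 29.7 CPM (median 3.02) and from 0.116 to 4.19 CPM (median 1.61), a log2 difference of 1.85 ± 0.73 (edgeR adjusted p = 0.13), which was 0.90 without IPL 8 (edgeR adjusted p = 0.382). Every AB1 SC tumor lay above every AE17 SC tumor for Igha, as for 10.9% of genes with at least 10 counts in those 16 tumors. The same held for Jchain (at least 2.74 CPM against at most 1.20) and Ighg2b (at least 2.33 CPM against at most 1.80). The log2 difference between AB1 and AE17 was 2.65 ± 0.75 in SC tumors (edgeR adjusted p = 0.00341) and 2.32 ± 0.71 in IPL tumors (edgeR adjusted p = 0.00515). Line, strain, inoculum and sequencing lane cannot be told apart in these differences, since at neither site did tumors of both models share a lane.

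**Figure D2:**
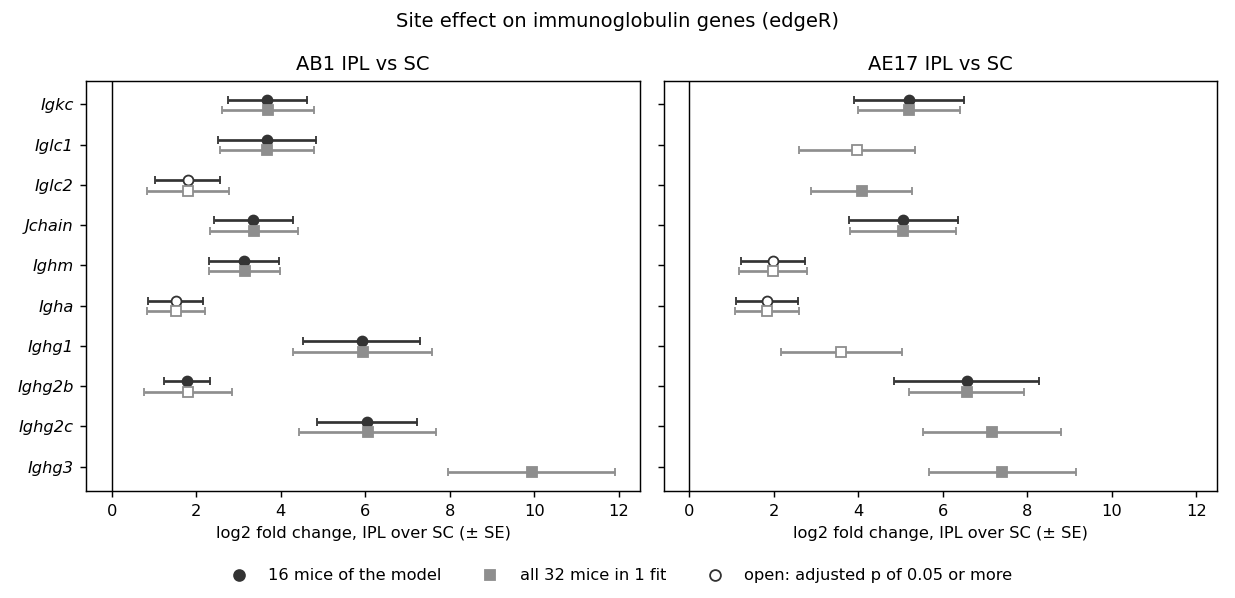
Log2 fold change of each gene between IPL and SC tumors with its standard error, in AB1 (left) and AE17 (right); circles are fits to the 16 mice of a model, squares the fit to all 32 mice, and open symbols did not pass the test. A gene with no circle was removed by the filter on low counts in that model, and every value shown lies above 0.

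Together, 9 of the 10 genes passed the filter in AB1 and 7 of them were higher in IPL than in SC tumors, with none lower. Over all 14645 genes tested in AB1 the shares called higher and lower at the IPL site were 12.3% and 10.7%. Without AB1 IPL 2 and 4, with 11.4% of all genes called higher, 2 of the 7 remained, Ighg2c at 4.99 (edgeR adjusted p = 0.00739) and Ighg1 at 2.60 (edgeR adjusted p = 0.0335), and Igkc fell to 1.68 (edgeR adjusted p = 0.0769). Within lane 3, 8 IPL against 2 SC tumors, none passed after adjustment in edgeR and 1 did at an unadjusted p. The log2 fold changes of the 7 genes there lay between 1.66 for Ighg2b and 5.80 for Ighg2c, and that of Igkc was 4.06 (edgeR adjusted p = 0.453). The Iglc1 call was also lost without any of AB1 SC 2, 3, 4, 6, 7 or 8, at edgeR adjusted p between 0.0506 and 0.0552, with log2 fold changes of 3.495 to 3.687 that were about as large. DESeq2 called 7 genes in AB1 as well, where 2594 of the 21160 genes it tested were higher. Ighg3 was among them in place of Iglc1 (1.20, DESeq2 adjusted p = 0.204).

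In AE17, 5 of the 10 genes passed the filter and 3 of them (Jchain, Igkc and Ighg2b) were higher in IPL tumors. Over all 14668 genes tested there the shares called higher and lower were 2.6% and 3.13%. Without AE17 IPL 5 and 8, none passed in edgeR, also at an unadjusted p, and the log2 differences were 1.18 for Igkc, 0.99 for Jchain and 0.44 for Ighg2b, with edgeR adjusted p of 0.214, 0.253 and 0.727. All 3 calls were also lost without AE17 IPL 8 alone or without any 1 of AE17 SC 2, 5, 6, 7 or 8, and the call of Ighg2b without SC 4. Without SC 2, 5, 6, 7 or 8 the fold changes hardly moved, with Igkc at 5.10 to 5.19, Jchain at 4.94 to 5.17 and Ighg2b at 6.39 to 6.61 and edgeR adjusted p between 0.0605 and 0.0786. Within lane 1, 3 IPL against 8 SC tumors, none passed after adjustment (6 of 7 tested at an unadjusted p) and the log2 fold changes were 5.66 for Igkc, 5.51 for Jchain and 6.43 for Ighg2b, with edgeR adjusted p of 0.0828, 0.0686 and 0.0984. That lane includes AE17 IPL 8.

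The fit of all 32 mice, which shares 1 estimate of the spread and tests all 10 genes in both models, called 7 in AB1, against 16.1% of all genes higher in IPL, and 6 in AE17, against 3.79%. Ighg3 is among the calls of both models and passed the filter only through IPL tumors, so the counts of calls are not read as support. In AE17 the other added genes were Ighg2c (log2 fold change 7.17, edgeR adjusted p = 0.00653) and Iglc2 (4.09, edgeR adjusted p = 0.0317). Both were removed by the filter when AE17 was fitted alone, so these tests are not used as support either. In AB1 Ighg2b did not pass (edgeR adjusted p = 0.202), at a log2 fold change of 1.81 ± 1.04 against 1.79 ± 0.55 in AB1 alone. DESeq2, the tool named in the methods, also gave 3 genes in AE17, against 4.82% of the genes it tested. Of these Ighg2b was among the edgeR calls, and Ighg1 and Ighg3 were the others. With 8 mice a group DESeq2 replaces counts it takes for outliers, and it replaced the Igkc counts of AE17 IPL 5 and 8, 8583 and 10018, by 97 and 105, which left a log2 difference of 1.06 (DESeq2 adjusted p = 0.153).

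The site effect differed between the models by the test for 1 of the 10 genes, Ighg2b, against 20.5% of all genes. Its AB1 effect minus its AE17 effect was -4.76 ± 1.65 on the log2 scale (edgeR adjusted p = 0.0397). Without AE17 IPL 5 and 8 this difference was 1.37 (edgeR adjusted p = 0.332). Leaving out the highest tumors of 1 model only moves such differences toward AB1, so no call or change of sign is read from that fit. The Ighg2b value shows only that its difference rested on those 2 tumors. In SC tumors 3 of the 10 genes differed between AB1 and AE17, all higher in AB1, against 58.3% of all genes in either direction. These were Igha, Jchain (log2 difference 3.42 ± 1.26, edgeR adjusted p = 0.0209) and Ighg2b (3.21 ± 1.32, edgeR adjusted p = 0.037). Without a filter Ighg2b did not pass (3.22, edgeR adjusted p = 0.0637). In IPL tumors 1 of 10 differed, Igha, against 63.4% of all genes. DESeq2 called 5 of the 10 genes between the models in SC tumors, against 44.5% of the genes it tested, and 2 in IPL tumors, against 48.8%. Ighm did not pass at either site, with log2 differences of -0.26 ± 0.78 (SC, edgeR adjusted p = 0.791) and 0.90 ± 0.77 (IPL, edgeR adjusted p = 0.318).

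The isotype make-up of each tumor was taken as shares of its counts on the 6 heavy chain genes. Ighm made up most of them in nearly all tumors: its mean share was 64.3% ± 17.2 (SD, n = 8) in AB1 IPL, 69.4% ± 8.62 in AB1 SC, 72.7% ± 23.1 in AE17 IPL and 91.6% ± 6.55 in AE17 SC tumors. The share fell below 50% in AB1 IPL 4 and 7 and AE17 IPL 5, with the lowest values of 33.8% in AB1 IPL 7 and 31.6% in AE17 IPL 5. In the 14 AE17 tumors other than IPL 5 and 8, Ighm had a 4.01-fold range and Igkc a 32.01-fold range, as described below. An AE17 Ighm or IgG share therefore also moves with the level of the other genes beside a steadier Ighm. The source of that Ighm was not tested. The 4 IgG genes together made up 22.4% ± 17.2 in AB1 IPL and 10.8% ± 3.29 in AB1 SC tumors, and 22.7% ± 24.96 in AE17 IPL and 4.25% ± 4.88 in AE17 SC tumors. IgG shares above the SC median were seen in 6 of 8 AB1 and 7 of 8 AE17 IPL tumors. Igha made up 13.3% ± 7.01 and 19.8% ± 8.28 in AB1 IPL and SC tumors, and 4.64% ± 4.67 and 4.15% ± 3.37 in AE17 IPL and SC tumors.

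None of these shares differed between the sites after adjustment over the 8 tests (exact two-sided permutation tests over 12870 splits, or 6435 for the AE17 lambda share; smallest possible p 0.000155 and 0.000311). The IgM share was 18.9 percentage points lower in AE17 IPL than SC tumors (exact permutation p = 0.0362, adjusted p = 0.162), and the IgG share was 18.4 points higher (exact permutation p = 0.0609, adjusted p = 0.162). In AB1 the IgG share was 11.6 points higher at the IPL site (exact permutation p = 0.0563, adjusted p = 0.162), the IgA share 6.48 points lower (adjusted p = 0.225) and the IgM share 5.07 points lower (adjusted p = 0.637) by the same exact permutation tests. The spread was wider among IPL than among SC tumors for the IgG share in both models. Within 1 lane the IgG differences were 6.37 points in AB1 (adjusted p = 0.958) and 14.5 points in AE17 (adjusted p = 0.218) by exact permutation. Without AE17 IPL 5 and 8 the AE17 IgG difference was 8.12 points, and without AB1 IPL 2 and 4 the AB1 difference was 8.37 points.

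**Figure D3:**
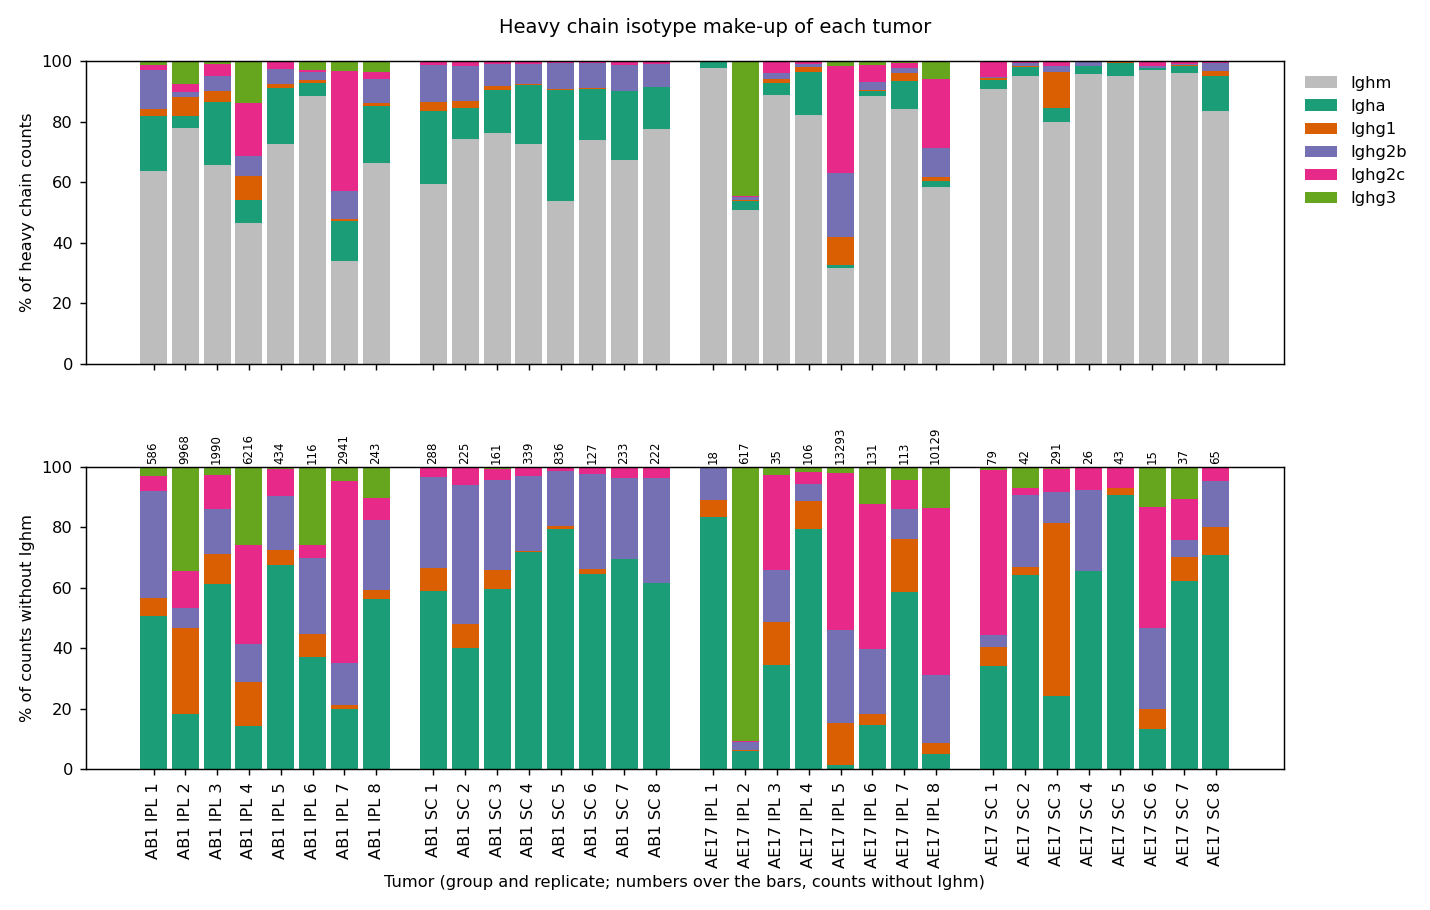
Heavy chain make-up of each tumor as a percentage of its counts, for all 6 heavy chain genes (top) and for the 5 switched genes without Ighm (bottom, with the number of those counts over each bar). The switched counts of AB1 SC tumors are mainly Igha and Ighg2b, while the leading switched gene varies among IPL tumors.

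The switched genes show how differently single tumors were composed. In AB1 SC tumors Igha made up between 40.0% and 79.4% of the switched counts and Ighg2b between 18.2% and 45.8%, while Ighg1, Ighg2c and Ighg3 each stayed at or under 8.0%. Igha led in 7 of 8 AB1 SC tumors, 5 of 8 AB1 IPL, 4 of 8 AE17 IPL and 5 of 8 AE17 SC tumors. Per kilobase of exon the numbers were 7, 5, 3 and 5. AB1 IPL 7 was led by Ighg2c, with 59.8% of 2941 switched counts (exact 95% binomial interval 58.1% to 61.6%), AB1 IPL 4 also by Ighg2c (32.96%) and AB1 IPL 2 by Ighg3 (34.4% of 9968). Molecular identifiers were not used, so these intervals describe the error of counting and nothing else.

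In AE17 the contrasts were sharper. AE17 IPL 2 held 560 Ighg3 counts of 617 switched counts, 90.8% (interval 88.2% to 92.9%), a share that none of the other 31 tumors approached, the next being 34.4% in AB1 IPL 2. AE17 IPL 5 and 8, the tumors with the most immunoglobulin counts of that model, were both led by Ighg2c, at 51.6% and 55.2% of 13293 and 10129 switched counts, with Igha at 1.37% in the first. AE17 SC 3 was led by Ighg1 with 167 of 291 switched counts (57.4%, interval 51.5% to 63.1%). The remaining AE17 SC tumors held between 15 and 79 switched counts, and the interval of the leading share was as wide as 16.3% to 67.7% in SC 6.

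Kappa dominated the light chains in all groups. Counts on Iglc1 and Iglc2 made up 4.68% ± 2.69 of the light chain counts in AB1 IPL and 7.56% ± 4.74 in AB1 SC tumors (exact permutation, adjusted p = 0.247), and 4.29% ± 2.08 in AE17 IPL (n = 8) and 5.18% ± 3.92 in AE17 SC tumors (n = 7, exact permutation, adjusted p = 0.688). AE17 SC 4 had too few light chain counts to enter. AB1 IPL 7 held the lowest lambda share of the IPL tumors, 0.273%, beside its high Igkc level of 170 CPM. With Iglc3, which shares reads with Iglc2, counted as lambda, the AB1 lambda shares were 6.29% ± 3.45 (SD, n = 8) in IPL and 13.5% ± 5.19 in SC tumors, a difference of -7.17 points that passed (exact permutation, adjusted p = 0.0311).

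Ighm and Igkc parted in AE17. Apart from IPL 5 and 8, the other 14 AE17 tumors held between 17.1 and 68.6 CPM of Ighm (median 41.1), a 4.01-fold range, while Igkc ranged from 0.602 to 19.3 CPM (median 3.50), a 32.01-fold range. Per kilobase of exon, the level of Ighm over that of Igkc had a median of 0.403 in AB1 IPL and 0.574 in AB1 SC tumors, 1.15 in AE17 IPL and 3.42 in AE17 SC tumors, and reached 16.6 in AE17 SC 4. The lowest AE17 SC ratio, 1.67, was above the highest AB1 ratio of 0.769. The Spearman correlation of Ighm with Igkc was 0.935 over the 16 AB1 tumors and 0.471 over the 16 AE17 tumors. In the same 14 AE17 tumors Pax5, a transcription factor of B cells, was at 8.36 to 104 CPM, while Cd79a, the signaling chain of the B cell receptor, was at 0.238 to 2.37 CPM. Their part in the Ighm level was not tested.

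**Figure D4:**
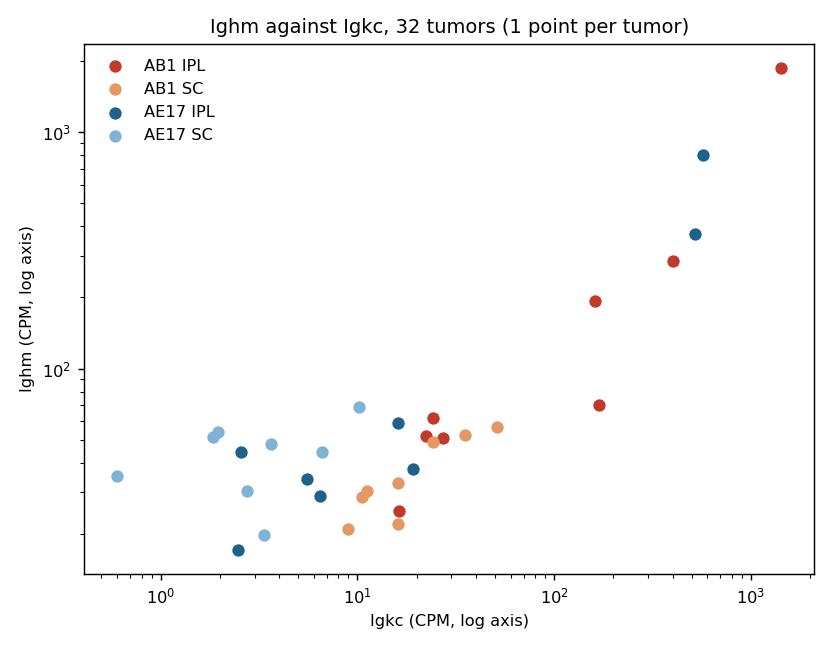
Ighm against Igkc in CPM, both on log axes, 1 point per tumor. AB1 tumors and AE17 IPL 5 and 8 lie along a rising band, and the other 14 AE17 tumors spread along Igkc from 0.602 to 19.3 CPM at Ighm levels of 17.1 to 68.6 CPM.

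Of the other immunoglobulin genes, 7 of 9 had a row and Ighd, the heavy chain of IgD that naive B cells carry beside IgM, was higher in IPL tumors of both models. DESeq2 called 4 of the list higher in AB1 and 1 in AE17. The log2 fold change of Ighd was 1.97 in AB1 (edgeR adjusted p = 0.024) and 4.02 in AE17 (edgeR adjusted p = 0.041), and it reached 63.7 and 37.2 CPM in AE17 IPL 5 and 8 against at most 3.38 CPM in the other AE17 tumors. Ighe, the heavy chain of IgE, had at most 21 counts in any tumor, in AE17 IPL 5, and none in the SC tumors, so at this depth its level lay under the limit of 3 counts, or 0.19 CPM, in each of those. Iglc3 was tested in AB1 and did not pass (log2 difference 1.22, edgeR adjusted p = 0.213).

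Genes of the B cell lineage did not all follow the immunoglobulin genes. Of 14 B cell genes, 13 had a row and 9 were tested in AB1, where Ebf1, Cd79a, Cd79b and Ms4a1 were higher in IPL tumors and Cd22 lower, and the median log2 difference was 0.70. In AE17 8 were tested, and Pax5 (1.41) and Cd79a (4.07) were higher, with a median of 1.31. These are edgeR calls, while DESeq2 called 8 of the B cell genes higher and 1 lower in AB1, and 7 higher and 0 lower in AE17. Of 18 plasma cell genes, 13 had a row and 11 were tested in each model. In AB1 Pou2af1, a coactivator of immunoglobulin transcription, was higher (log2 fold change 3.93, edgeR adjusted p = 0.00186) and 5 were lower, among them Irf4, Prdm1 and Slamf7. In AE17 none of the 11 passed in edgeR or DESeq2, and 1 was higher at an unadjusted p in edgeR. Pou2af1 was removed there by the filter and is not among the 11; it was at 19.9 and 16.6 CPM in AE17 IPL 5 and 8 and at most 0.698 CPM in the other 14 AE17 tumors. The most abundant genes of the list, Txndc5, Sdc1, Edem1 and Xbp1, which other secretory and tumor cells use too, had log2 differences between -0.17 and 0.30 in AB1, none of which passed. Over all genes tested the median log2 difference was -0.0023 in AB1 and 0.0043 in AE17.

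**Figure D5:**
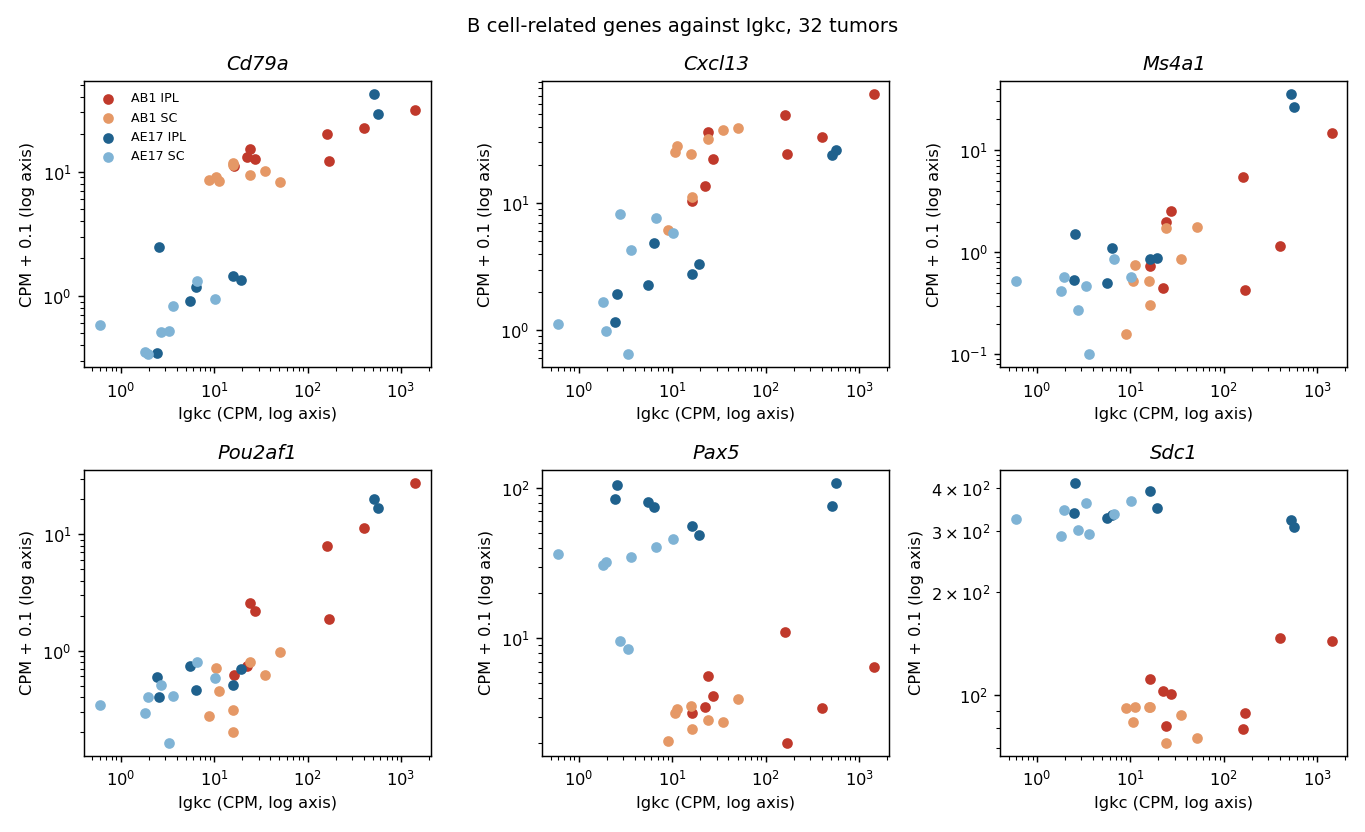
Levels of Cd79a, Cxcl13, Ms4a1, Pou2af1, Pax5 and Sdc1 in CPM with 0.1 added against Igkc in CPM, all on log axes, 1 point per tumor; the 6 genes were chosen after their values were seen. Pou2af1 rises to 27.6 CPM in AB1 IPL 2, which has the most Igkc, while Sdc1 is at 291 to 415 CPM in AE17 and at 72.2 to 145.9 CPM in AB1 tumors.

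Genes that drive or receive antibodies were also counted. Of 19 class switching and germinal center genes, 18 had a row. None was higher in IPL tumors of either model in edgeR or DESeq2 (at an unadjusted edgeR p, 1 in AB1 and 2 in AE17), and Cd40, which receives T cell help, and Il10 were lower in AB1, among 13 and 12 tested, with medians of -0.04 and -0.05. Of 10 B-1 cell genes, markers of the B cells found in body cavities, 9 had a row, and 2 were lower at the IPL site in each model, Ahr and Ctla4 in AB1 and Ahr and Cd9 in AE17. In AE17 DESeq2 called 1 higher and 3 lower, and 1 was higher at an unadjusted p in edgeR. Of 10 antibody receptor genes, 8 were tested in each model. In AB1 6 were lower in IPL tumors, with a median of -0.81, among them Fcgr2b (-1.37) and Fcgr3 (-1.08), the low-affinity receptors for IgG, and in AE17 none passed in edgeR or DESeq2 (2 were higher at an unadjusted edgeR p; median 0.14).

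Markers of other tissues moved with the site as well, and their part in the immunoglobulin levels was not tested. All 5 skeletal muscle genes were higher in AB1 IPL tumors, where their summed level ranged from 95.4 to 3517 CPM against 50.7 to 326 CPM in SC tumors; in AE17 none passed in edgeR, also at an unadjusted p, or in DESeq2. AB1 IPL 2, the tumor with the most immunoglobulin, held 71.1 CPM of Acta1, and AB1 IPL 4 held 1725 CPM. Of 4 adipocyte genes, Adipoq was higher in AB1 IPL tumors (log2 fold change 3.26), and AE17 IPL 5 had the highest summed level of all tumors, 300.2 CPM. AB1 IPL 2 had the highest summed level of the AB1 tumors, 99.5 CPM, with 41.4 CPM of Adipoq and 38.7 CPM of Cidec. AE17 IPL 8 held 5.35 CPM of Adipoq against 108 CPM in IPL 5. DESeq2 called 3 of the adipocyte genes higher in AB1. Of 8 lymph node stroma and high endothelium genes, 6 had a row. Ccl21a was higher in AB1 IPL tumors (3.90), and in the tumors with most immunoglobulin it was at 0.744, 15.3, 75.0 and 0.512 CPM (AB1 IPL 2 and 4, AE17 IPL 5 and 8). Cxcl13, of the same list, was at 71.96, 32.8, 23.7 and 25.9 CPM there, against group medians of 28.5 in AB1 IPL and 2.92 in AE17 IPL tumors. Cr2, a gene of B cells and follicular dendritic cells, was at 3.29, 0.0526, 22.9 and 8.99 CPM against medians of 0.36 and 0.212. DESeq2 called 2 genes of the list higher in each model.

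Of 12 thymocyte genes, 11 had a row. In AB1 1 was higher and 4 were lower, in AE17 1 was higher, while DESeq2 called 3 higher in each model and 4 lower in AB1. The defining gene Rag1 was at 0 to 4.43 CPM in AB1 IPL tumors (median 0.382) and 0 to 0.0526 CPM in AB1 SC tumors, at 0 to 1.57 CPM in AE17 IPL and 0 to 0.122 CPM in AE17 SC tumors. In AB1 IPL 2 and 4 and AE17 IPL 5 and 8 it was at 0.106, 0.578, 1.57 and 0 CPM. Rag2 reached at most 0.56 CPM, in AB1 IPL tumors. Of 10 lung epithelium genes, 7 had a row and 1, Napsa, was lower in AB1 IPL tumors, and in AE17 none passed in edgeR or DESeq2 (1 was lower at an unadjusted edgeR p). The defining genes Scgb1a1, Sftpb, Sftpa1 and Scgb3a2 averaged 0.154, 0.0881, 0.0446 and 0.00386 CPM. Of 8 mammary and salivary epithelium genes, 5 had a row, and Csn3 was higher in AB1 IPL tumors (1.99). Of 6 genes of mesothelioma cells, 5 had a row, 2 were tested in AB1 and 3 in AE17 and none passed in edgeR, also at an unadjusted p, while DESeq2 called 1 in AB1 and 2 in AE17. AB1 IPL 2 held the highest level of AB1 tumors for all 5, Cdkn2a (0.638 CPM, IPL median 0.263), Pdpn (203 CPM, IPL median 88.5), Upk3b (31.4, median 0.135), Wt1 (10.95, median 0.684) and Krt19 (9.89, median 0.225). AB1 IPL 4 held 0.105 CPM of Upk3b, and AE17 IPL 5 and 8 held 1.99 and 1.65 CPM against a group median of 1.86. Upk3b was at most 0.0602 CPM in SC tumors of both models.

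The genes most like Jchain and Igkc across the 32 tumors were found by Spearman correlation of log2 CPM over the 13932 genes whose mean level was 1 CPM or more. The 5 most like Jchain were Cd79a (0.906), the B cell chemokine gene Cxcl13 (0.880), Enpp5 (0.860), Hid1 (0.830) and Grap (0.819). The 5 most like Igkc were Cd79a (0.896), Cxcl13 (0.831), Enpp5 (0.827), Gm7694 (0.816) and Tesk1 (0.798). Cd79a ranged from 8.09 to 31.2 CPM in AB1 tumors, and from 0.238 to 1.22 CPM in AE17 SC and 0.247 to 42.0 CPM in AE17 IPL tumors, so the correlation over 32 tumors includes a difference between the models. Within the 16 AB1 tumors Cd79a correlated with Jchain at 0.629 and within the 16 AE17 tumors at 0.621, and Cxcl13 at 0.729 and 0.671. Without AB1 IPL 2 and AE17 IPL 8, the tumors farthest out, Pearson's r of Jchain with Cd79a moved from 0.857 to 0.854.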

How the data were processed

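The authors sequenced polyA RNA of 32 tumors as single-end reads of 50 bases, mapped them with HISAT2 2.0.4 and deposited raw counts of reads per gene, made with SummerizeOverlaps. The name their methods give for the genome build matches no known mouse build, and the strand setting of the counting is not given in the sources used here. Gene identifiers were matched without version to GENCODE M21 on GRCm38 for positions, lengths and sequences.

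The genes described, the lists and the tests were chosen with earlier results of these data known. Genes named are all 10 members, the 5 genes most like Jchain and Igkc, and up to 4 genes per list in order of mean level; Ms4a1, Pou2af1, Irf4, Prdm1, Slamf7, Il10, Ctla4, Upk3b and other list genes further down were picked with their values in view.

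The main test, run separately in AB1 and in AE17, set IPL against SC tumors with edgeR 4.0.16 under R 4.3.3 (filterByExpr, TMM, robust quasi-likelihood F test, two-sided), with Benjamini-Hochberg adjustment over all genes tested and a threshold of 0.05. The interaction and the comparison of models used 1 fit of all 32 mice. Standard errors are the fold change divided by the square root of F. Log2 CPM used a prior count of 2. Heavy and light chain shares, in percent of counts, were computed from the deposited counts and compared by exact permutation tests over tumors with at least 20 counts on the heavy or light chain genes. Make-up among switched genes is described for every tumor, down to 15 counts. P-values measure the spread between mice. Alternatives were DESeq2 1.42.0, its size factors, total counts, no filter, the replicate number as a block, lane as a covariate or within 1 lane, a fit that was not robust, each mouse left out in turn and, for shares, 100 or 1 as the minimum count, counts per kilobase and added genes. Leaving out AE17 IPL 5 and 8 was planned for the counts of genes; leaving out AB1 IPL 2 and 4, and for shares both pairs and the single lane, was added after seeing the data. The permutation, edgeR and DESeq2 steps were tested on simulated data. Stretches of 50 bases shared between genes were counted on GENCODE transcripts.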

Additional observations from a re-analysis of the deposited data

Results flagged for a closer look

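Among 56 checks of 8 (or 7) tumors of 1 group for a single value far from the rest, 7 found one, and chance flags about 1 in 20 groups. AE17 SC 3 stood apart for Ighg1, at 3.34 on the log2 CPM scale (9.99 CPM, 167 counts), for Iglc1, at -0.17 (0.778 CPM, 13 counts), and for the share of IgG in heavy chain counts, 15.4%. AE17 SC 1 stood apart for Iglc2, at -0.20 on the log2 CPM scale (0.756 CPM, 13 counts). AE17 SC 6 was low for Igha, at -2.12 on the log2 CPM scale (0.116 CPM, 2 counts), under the detection limit of 3 counts. AE17 SC 8 had the highest IgA share of its group, 11.8%, and AB1 SC 3 the highest lambda share of its group, 17.8%. The pairs AB1 IPL 2 and 4 and AE17 IPL 5 and 8 were not found by this check, which looks for 1 tumor far from all others. The site effect of Ighg2b differed between the models, by -4.76 ± 1.65 (AB1 minus AE17, log2 scale, edgeR adjusted p = 0.0397). It did not pass without a filter or with the replicate number as a block. The cause of none of these was tested.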

How the results depend on the processing

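The number of genes called in AB1, 7, fell in edgeR to 2 (Ighg1 and Ighg2c) with the replicate number as a block and without AB1 IPL 2 and 4, and to 0 with lane as a covariate (4 at an unadjusted p) and within 1 lane (1). It ranged from 6 to 9 with each mouse left out. Without a filter it was 6, with Ighg3 added and Iglc1 and Ighg2b lost at edgeR adjusted p of 0.0624 and 0.0562 and fold changes about as large. In DESeq2 it was 7, with Ighg3 in place of Iglc1. In AE17 the 3 calls became 1 without a filter (Ighg3, with more genes tested), 0 with the block (1 at an unadjusted p), with the lane covariate (5), within 1 lane (6) and without IPL 5 and 8 (0), 6 in the fit of all 32 mice, and 0 to 4 with each mouse left out. Same-numbered tumors correlated between -0.287 and -0.0027 in AB1 and between -0.227 and 0.271 in AE17, where 5 of 8 pairs were above 0.1 and 3 of 8 tumors correlated best with their own number, so the numbers were not taken to pair tumors. The block gave 0 genes with an interaction, no filter gave 0, and leaving out AE17 IPL 5 and 8, which had been chosen for these genes, gave 3. DESeq2 gave 5 genes in place of 3 between the models in SC tumors and 2 in place of 1 in IPL tumors (44.5% and 48.8% of all genes it tested). Without AE17 IPL 5 and 8, the AE17 effect of Ighm turned to -0.25 and the interactions of Jchain, Igkc, Ighg2c, Ighg2b, Iglc2, Igha and Iglc1 turned to 2.38, 2.53, 5.56, 1.37, 2.51, 1.24 and 2.95. The interaction of Ighg2c turned to 1.29 with the block, and Ighg1 between the models in SC tumors to 1.04 with DESeq2, which replaced 167 counts of AE17 SC 3 by 10. The AB1 lambda share moved from -2.89 to -7.17 points with Iglc3 (exact permutation adjusted p = 0.0311). With each mouse left out the AE17 IgA difference ranged from -0.877 to 1.58 points and the AE17 lambda difference from -1.75 to 0.299. Over all genes, those higher in AB1 IPL tumors numbered 1803, against 1080 with the block, 107 with the lane covariate and 10 within 1 lane, and those in AE17 numbered 381, against 877 with DESeq2, 217 without a filter, 0 with the lane covariate and 10 within 1 lane, all others by edgeR. The other causes were not tested. Of all alternatives to the counts of calls and the shares, 221 kept the direction and side of the threshold or a count within 1.5 times, 17 were weaker, 5 stronger and 4 reversed. A count that was kept can hold other genes: 1 of the 3 AE17 genes of DESeq2 was among the edgeR calls. Shares on few counts have wide counting intervals.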
